A study of Mus musculus with 6 samples.

Results

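The genes described here encode the subunits of the proteasome. They were chosen by symbol alone, as every gene whose mouse symbol starts with Psma, Psmb, Psmc, Psmd or Psme and ends in a number, with no measured value used. There were 43 such genes among the 23038 genes in each library's table, and all 43 were matched to an Entrez identifier. The messenger RNA of NSC-34 cells was sequenced, a mouse motor neuron-like line derived from a neuroblastoma fused to motor neurons of the cord. The cells of 3 libraries had received control siRNA (siNC) and those of the other 3 had received siRNA directed at Qk (siQk), the gene of the Quaking RNA-binding proteins, and the study asks how transcripts change when Quaking is depleted. According to the labels and the study's methods, 3 different siRNAs against Qk were used, which library received which is not given, and the cultures were separate. All libraries came from the same cell line, a hybrid with a tumor parent, and none from motor neurons of the spinal cord.

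The proteasome is the protease that degrades proteins tagged with ubiquitin. Its core particle is a barrel of 4 stacked rings, with outer rings of Psma (alpha) subunits and inner rings of Psmb (beta) subunits, and only some beta subunits cut peptide bonds. A regulatory particle caps the barrel. Its base holds the Psmc ATPases, which unfold substrates, and some of the Psmd subunits of the base and the lid bind ubiquitin or remove it. Interferon-induced beta subunits (Psmb8, Psmb9 and Psmb10) can replace the standard catalytic subunits and change the peptides made for antigen presentation, and the Psme proteins form other caps. Neurons depend on this system for turnover of damaged and regulatory proteins, and ubiquitin-positive inclusions are a hallmark of motor neuron disease.

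Each library held between 43000662 and 53566076 rounded expected counts, and the proteasome genes took between 0.874% and 1.01% of them. Levels are given in RPKM, the expected count scaled by exon length and library total, in the order of replicates 1, 2 and 3. In 5 of the 11 neuron markers checked the RNA was too low for the test (Chat, the acetylcholine-synthesizing enzyme, had 0.0297 to 0.141 RPKM), while Isl1, Slc18a3, Nefl, Nefm, Tubb3 and Elavl3 were measured. Among 14 markers of other cell types, 11 were under the same limit, and Cd3e of T cells was at 0 in all 6 libraries. Isl1, a motor neuron transcription factor, had 4.83, 4.75 and 4.80 RPKM in siNC and 9.63, 7.80 and 8.33 RPKM in siQk (edgeR p = 0.00101, adjusted p = 0.9996, exact permutation p = 0.1). Isl1 did not pass the test, and its part in the results for the proteasome genes was not tested. Qk itself had 9.67, 8.18 and 14.9 RPKM in siNC and 1.39, 1.71 and 1.10 RPKM in siQk, a log2 fold change of -2.997 (SE 0.34, n = 3 and 3, edgeR quasi-likelihood test, adjusted p = 0.0149). It was the 1 gene called among 12665 tested (0.0079%) at an unadjusted p under 0.01 and an adjusted p under 0.1.

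With Qk reduced, no proteasome gene passed the test. Of the 43 genes, 41 were abundant enough to be tested, and 0 of 41 were called, beside 0.0079% of all genes. At an unadjusted p under 0.05 the count was also 0 of 41, where 2.89% of all genes were under that value, and DESeq2 and the edgeR exact test likewise called 0. The smallest unadjusted p among them was 0.120 (Psmb10, edgeR quasi-likelihood test), and the adjusted p of every tested member was 0.9996. Fold changes were small and lay on both sides of 0: 25 genes were above it and 16 below, and the median log2 fold change was 0.033, beside 0.0034 over all genes tested. The range ran from -0.28 for Psmc2 to 0.46 for Psmb10. The median size of the difference was 0.076 on the log2 scale, against 0.15 over all genes. These genes are abundant, with a median mean log2 CPM of 7.71 against 5.11, and their median spread within a group was 0.16 on the log2 scale against 0.26.

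The test left room for modest differences. The 95% interval of the difference (limma, on log2 CPM) lay within 1.5-fold in either direction for 33 of 41 members (80.5%), beside 38.2% of all genes tested, and within 2-fold for 40 of 41. The median half-width of this interval was 0.35 on the log2 scale, so differences well below 1.5-fold would be missed in many of these genes with 3 libraries a group. Groups did not overlap in RPKM for 2 members, Psmd1 and Psmd11, both higher in siQk, beside 5.35% of all genes in that direction, and for 0 members in the lower direction, beside 3.49% of all genes. In log2 CPM the groups of Psmd1 and Psmd11 overlapped through siNC replicate 3. In bulk libraries such as these, fewer cells making a transcript and less RNA per cell cannot be told apart.

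**Figure D1:**
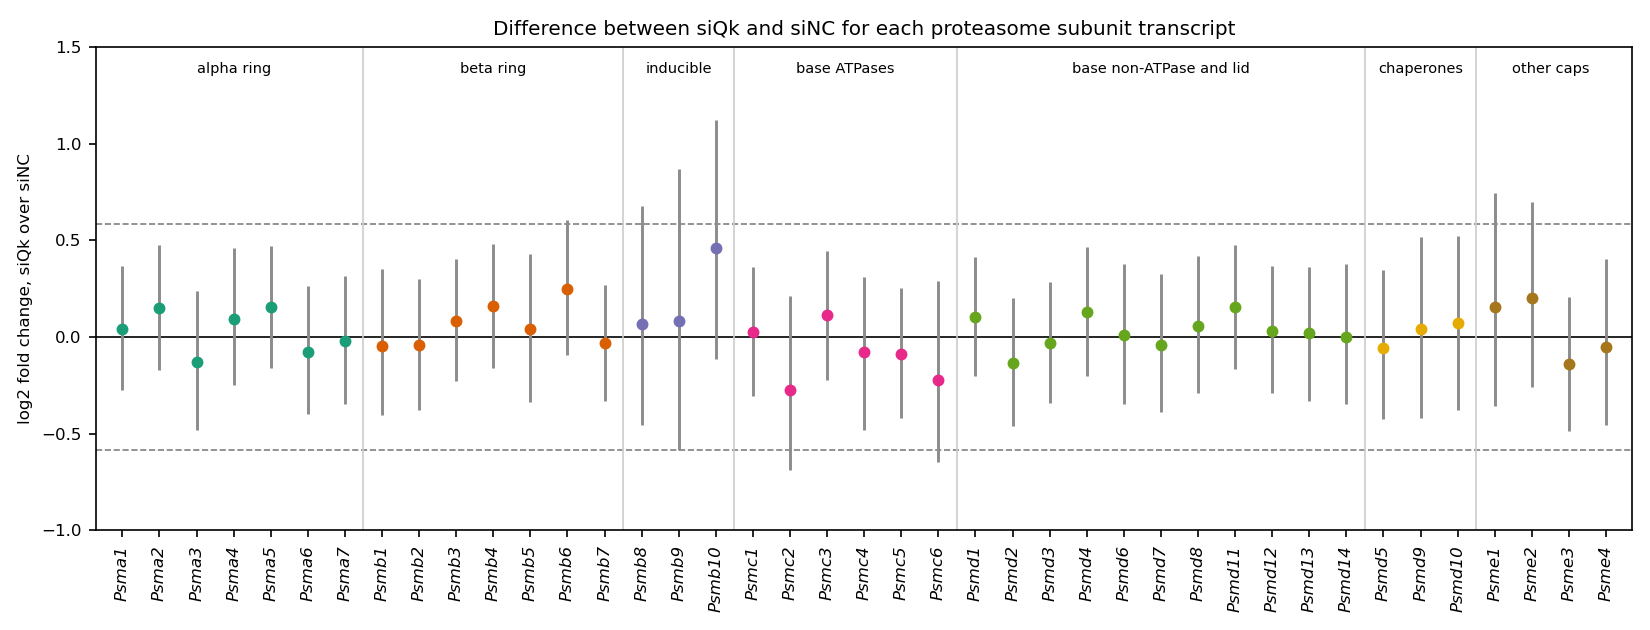
Log2 fold change of siQk over siNC (points, colored by role) for the 41 proteasome genes tested, with 95% limma intervals as bars (n = 3 libraries a group) and dashed lines at 1.5-fold in either direction. Every interval crosses 0, and those of the inducible subunits Psmb8, Psmb9 and Psmb10 are among the widest.

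The alpha ring forms the gate through which substrates enter the core. Of its 8 genes, 7 were tested, 4 had a positive and 3 a negative log2 fold change, 0 passed the test and the median was 0.043. Psma6 had the highest mean level of the ring, with 491, 408 and 494 RPKM in siNC and 442, 456 and 451 RPKM in siQk. The siQk values lay inside the siNC range, and the log2 fold change was -0.075 (SE 0.11). Psma5 had the smallest unadjusted p of the ring, with 105, 99.8 and 91.7 RPKM in siNC and 105, 119 and 112 RPKM in siQk, a log2 fold change of 0.16 (SE 0.065, edgeR p = 0.304, exact permutation p = 0.2). Psma2 had 161, 142 and 149 RPKM in siNC and 159, 171 and 181 RPKM in siQk, a log2 fold change of 0.15 (SE 0.086, edgeR p = 0.326, exact permutation p = 0.2). Both genes overlapped between the groups, through siNC replicate 1 and siQk replicate 1. Psma8, a form of the alpha ring subunit Psma7 made in testis, had a count of 0 in all 6 libraries, where 3 counts would have been 0.0331 to 0.0412 RPKM. Limits of this kind, set by a count near 0, cover counting error only.

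The beta ring holds the active sites and structural partners. All 7 of its standard genes were tested, 4 were above 0 and 3 below, 0 passed the test, and the median log2 fold change was 0.042. Psmb4, a structural subunit, had the highest mean RPKM of the core over the 6 libraries on the deposited exon lengths, though not in siNC alone, with 496, 456 and 408 RPKM in siNC and 490, 574 and 483 RPKM in siQk, a log2 fold change of 0.16 (SE 0.099). Its siNC and siQk values overlapped through siNC replicate 1. The 3 catalytic subunits differed in level among themselves more than between groups.

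Psmb6, which carries the caspase-like site (beta1 position), had 212, 186 and 157 RPKM in siNC and 215, 249 and 208 RPKM in siQk. The log2 fold change was 0.25 (SE 0.13, edgeR p = 0.144, exact permutation p = 0.2, n = 3 and 3), and the groups overlapped because siNC replicate 1 lay above siQk replicate 3. Psmb7, with the trypsin-like site (beta2 position), had 130, 127 and 137 RPKM in siNC and 132, 131 and 130 RPKM in siQk. It was among the steadiest members, with a log2 fold change of -0.032 (SE 0.062) and an interval from -0.33 to 0.27. Psmb5, with the chymotrypsin-like site (beta5 position) that proteasome inhibitor drugs bind, had 72.2, 60.5 and 53.4 RPKM in siNC and 68.1, 58.9 and 67.6 RPKM in siQk. Its siQk values lay within the siNC range, and the log2 fold change was 0.042 (SE 0.13).

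The interferon-inducible counterparts were present at lower levels in every library. Psmb8, which replaces Psmb5, had 23.6, 30.4 and 14.9 RPKM in siNC and 25.7, 27.0 and 20.3 RPKM in siQk, a log2 fold change of 0.070 (SE 0.30). Psmb9, which replaces Psmb6, had 7.87, 9.65 and 4.25 RPKM in siNC and 8.91, 6.86 and 7.54 RPKM in siQk, a log2 fold change of 0.083 (SE 0.34). In both genes the siNC libraries spanned the siQk range, and siNC replicate 3 was the lowest of the 6. Psmb10, which replaces Psmb7, had 13.1, 11.6 and 6.37 RPKM in siNC and 14.6, 16.9 and 11.8 RPKM in siQk. The groups overlapped through siQk replicate 3, and the log2 fold change of 0.46 (SE 0.33, edgeR p = 0.120, adjusted p = 0.9996, exact permutation p = 0.2) had an interval from -0.12 to 1.12. Without siNC replicate 3 that value was 0.22, so its size rested on 1 library. Psmb11, the subunit of thymus epithelium, had 0 to 2 counts in each library, below the limit of 3 counts (0.0132 to 0.0164 RPKM), and no fold change is given for it.

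The share of inducible to standard transcript can be read in each library. For Psmb9 against Psmb6 it was 3.87% ± 1.25 in siNC and 3.51% ± 0.699 in siQk (SD, n = 3 each), and over the 6 libraries it ran from 2.71% to 5.19%. For Psmb10 against Psmb7 the values were 7.96% ± 2.91 and 11.01% ± 1.86, with a range of 4.64% to 12.9%. For Psmb8 against Psmb5 they were 36.9% ± 11.8 and 37.9% ± 7.93, with a range of 27.8% to 50.3%. The beta5 position thus had the highest inducible share in each of the 6 libraries, and in none of the pairs did the groups separate. Psmb5 has near-identical copies elsewhere over 88.5% of its principal transcript, while the other genes of these pairs have none, so the beta5 share is uncertain. These shares use the deposited exon lengths. With the length of the principal GENCODE transcript in their place, the mean over the 6 libraries was 17.8 for Psmb8 and 61.7 for Psmb5, 3.02 for Psmb9 and 265 for Psmb6, and 14.1 for Psmb10 and 366 for Psmb7, in RPKM-like units, so the inducible genes also stood below their counterparts on that scale.

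**Figure D2:**
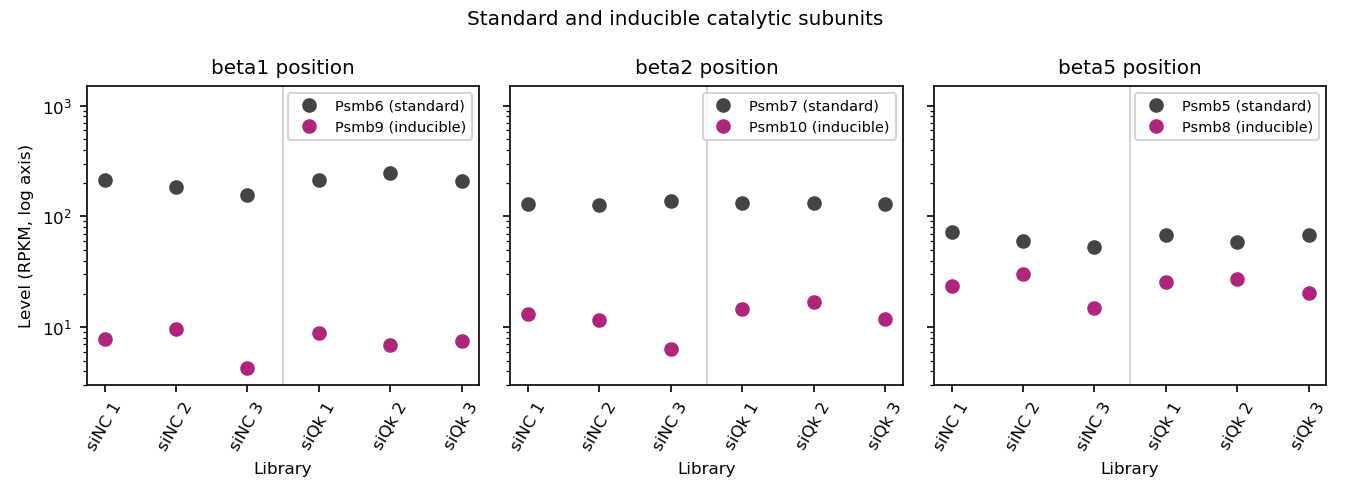
Level in RPKM (log axis) of each standard catalytic subunit (gray) and its inducible counterpart (magenta) in the 6 libraries, with siNC left and siQk right of the vertical line. The gap is narrowest at the beta5 position, where Psmb8 reached 27.8% to 50.3% of Psmb5, and siNC replicate 3 is the lowest library for all 3 inducible subunits.

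The promoters of 5 of these catalytic genes are shown because the standard and inducible versions of the same position differed in level in all 6 libraries. Each window holds 250 bases before and 50 bases from the RefSeq transcription start (GRCm38.p6), read along the gene's own strand, and capitals mark the motif matches described after the sequences. The regions are chr14:54617946-54618245 (minus strand) for Psmb5, chr17:34197945-34198244 (plus strand) for Psmb8, chr11:70525107-70525406 (plus strand) for Psmb6, chr17:34187281-34187580 (minus strand) for Psmb9 and chr8:105938343-105938642 (minus strand) for Psmb10, and Psmb7 has no entry in the promoter table.
Psmb5: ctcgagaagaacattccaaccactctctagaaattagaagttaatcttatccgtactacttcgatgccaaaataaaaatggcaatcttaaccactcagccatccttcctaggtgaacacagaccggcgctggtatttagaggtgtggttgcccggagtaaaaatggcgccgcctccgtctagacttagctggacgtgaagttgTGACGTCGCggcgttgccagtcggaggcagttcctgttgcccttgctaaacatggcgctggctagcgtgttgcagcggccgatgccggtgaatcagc
Psmb8: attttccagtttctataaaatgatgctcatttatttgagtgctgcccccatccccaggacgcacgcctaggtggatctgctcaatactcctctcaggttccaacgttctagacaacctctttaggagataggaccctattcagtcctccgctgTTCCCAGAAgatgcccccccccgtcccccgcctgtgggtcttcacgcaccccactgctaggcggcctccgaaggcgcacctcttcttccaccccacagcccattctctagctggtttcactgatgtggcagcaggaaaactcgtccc
Psmb6: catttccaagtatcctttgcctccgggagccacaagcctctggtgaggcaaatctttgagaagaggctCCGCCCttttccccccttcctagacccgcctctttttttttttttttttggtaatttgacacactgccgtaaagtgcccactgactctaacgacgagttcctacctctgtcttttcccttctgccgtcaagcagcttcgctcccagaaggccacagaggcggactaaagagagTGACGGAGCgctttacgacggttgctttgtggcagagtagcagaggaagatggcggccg
Psmb9: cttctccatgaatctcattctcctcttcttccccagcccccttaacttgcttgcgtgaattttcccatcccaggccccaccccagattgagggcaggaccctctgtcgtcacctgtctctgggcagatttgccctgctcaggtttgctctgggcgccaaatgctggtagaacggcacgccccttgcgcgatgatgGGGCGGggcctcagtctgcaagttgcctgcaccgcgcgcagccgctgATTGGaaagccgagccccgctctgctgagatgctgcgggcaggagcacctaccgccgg
Psmb10: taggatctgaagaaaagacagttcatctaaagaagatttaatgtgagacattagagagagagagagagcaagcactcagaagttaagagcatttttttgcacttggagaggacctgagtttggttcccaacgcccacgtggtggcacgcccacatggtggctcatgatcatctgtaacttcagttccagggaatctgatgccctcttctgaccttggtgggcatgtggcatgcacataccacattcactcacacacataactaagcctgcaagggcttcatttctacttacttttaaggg

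The letters TGACNNNGC, the core of the antioxidant response element to which Nfe2l1 and Nfe2l2 bind, occurred in Psmb5 starting 47 bases before the transcription start and in Psmb6 starting 9 bases before it, on the strand of the gene. The letters TTCNNNGAA, the form of an interferon-gamma activated site, occurred in Psmb8 at 97 bases before the start. Psmb9 held a GC box (GGGCGG) at 55 bases before the start and a CCAAT box on the opposite strand at 8 bases before it, and Psmb6 also held a GC box on the opposite strand at 182 bases before its start. The windows of Psmb8 and Psmb9 lie wholly inside the GENCODE spans of these genes, so their matches lie past the starts of those spans. The window of Psmb10 held none of the 5 motifs searched. Promoter entries were found for 36 of the 43 members, and both strands were searched. TGACNNNGC was present in 6 of the 36 (16.7%, beside 13.99% of 27025 genes with promoter windows of the same length) and CCAAT in 14 (38.9%, beside 41.1%). GGGCGG was present in 22 (61.1%, beside 38.2%), the core of an interferon-stimulated response element in 4 (11.1%, beside 3.99%), and TTCNNNGAA in 2 (5.56%, beside 9.55%). The letters of these motifs do not overlap one another in the sequences shown, and a match describes the letters and not a bound site.

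Psmb9 lies at chr17:34181987-34187764 on the minus strand of GRCm38 (mm10) and starts 211 bases from Tap1, the peptide transporter gene on the opposite strand (chr17:34187553-34197225). The exons of Psmb9 and Tap1 share 212 bases, and since the library kit keeps no strand, reads there cannot be assigned to either gene by strand. Psmb8 follows at chr17:34197721-34201454 and shares 498 exon bases with an antisense gene. Tap1 had 2.88, 3.77 and 1.93 RPKM in siNC and 3.15, 3.42 and 2.89 RPKM in siQk, again with siNC replicate 3 as the lowest library. On chromosome 14, Psmb5 (chr14:54614119-54618022) and the thymic Psmb11 (chr14:54621433-54629556) start 3411 bases apart on opposite strands, and their levels in these cells differed from 63.4 RPKM on average to at most 2 counts.

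**Figure D3:**
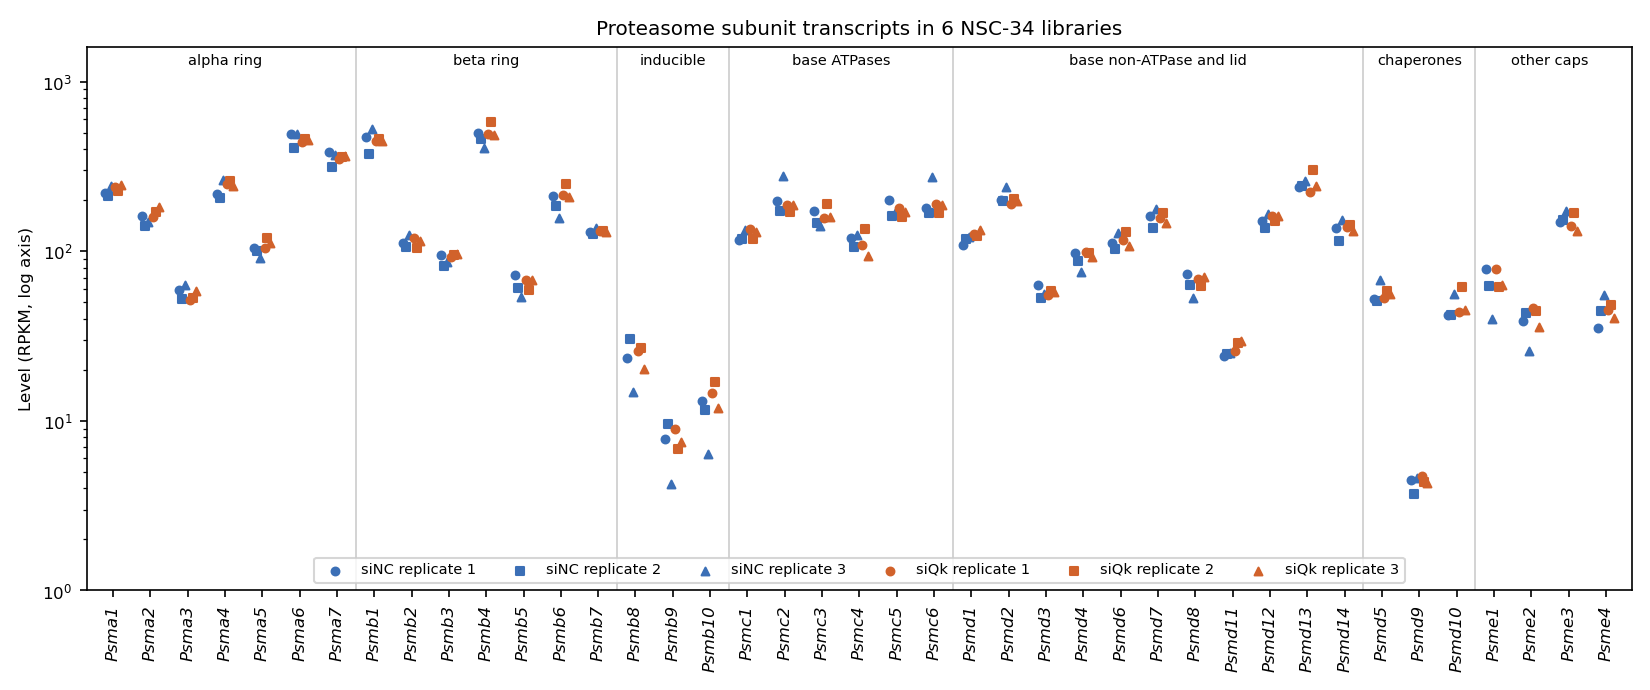
Level in RPKM (log axis) of the 41 tested proteasome genes in each of the 6 libraries, grouped by role, with siNC in blue and siQk in orange. The standard core subunits lie between 51.6 and 574 RPKM. The inducible subunits, the chaperone Psmd9, Psmd11 and Psme2 lie wholly below them. Blue and orange symbols overlap in every gene but Psmd1 and Psmd11.

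The 6 ATPases of the base unfold substrates and open the core. All 6 were tested, 2 were above and 4 below 0, 0 passed the test and the median log2 fold change was -0.082, the only role group with a negative median. In log2 CPM their median deviation from the siNC mean was -0.023, -0.17 and 0.16 in the siNC libraries. In the siQk libraries it was -0.052, -0.14 and -0.095, inside the siNC range. Psmc2 had 198, 172 and 278 RPKM in siNC and 188, 171 and 189 RPKM in siQk, a log2 fold change of -0.28 (SE 0.24, edgeR p = 0.205, exact permutation p = 0.4). Psmc6 had 179, 167 and 273 RPKM in siNC and 189, 168 and 187 RPKM in siQk, a log2 fold change of -0.22 (SE 0.26, edgeR p = 0.325, exact permutation p = 0.9). Both negative values rested on siNC replicate 3, which stood far above the other 5 libraries in both genes. Without it the log2 fold change was -0.019 for Psmc2 and 0.068 for Psmc6. Psmc4, with the lowest mean RPKM of the 6 over all libraries, had 120, 105 and 124 RPKM in siNC and 109, 136 and 93.7 RPKM in siQk, with siQk holding both the highest and the lowest library. Mean levels of the 6 ATPases, which occupy 1 ring together, spanned 115 RPKM (Psmc4) to 199 RPKM (Psmc2), a 1.74-fold range that was much narrower than in the core.

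Among the non-ATPase subunits of the base and the lid, some bind ubiquitin chains or remove them and others are scaffolds. All 11 genes were tested, 8 were above and 3 below 0, 0 passed the test, the median log2 fold change was 0.023, and all 11 intervals lay within 1.5-fold. Psmd11, a scaffold of the lid, had 24.1, 24.7 and 25.2 RPKM in siNC and 25.8, 28.7 and 29.5 RPKM in siQk. In RPKM every siQk library lay above every siNC library, and the log2 fold change was 0.16 (SE 0.073, edgeR p = 0.311, adjusted p = 0.9996, exact permutation p = 0.1). That p is as low as an exact test of 3 against 3 can go. In log2 CPM the groups of Psmd11 overlapped. There siNC replicate 3 was 0.082 above the siNC mean and siQk replicate 1 was 0.039 above it. Psmd11 also has near-identical copies elsewhere over 52.7% of its principal transcript, among them A730017L22Rik at 2.16 to 2.84 RPKM, and how reads were divided between them is not given in the sources used here. Psmd1, a large base scaffold, had 109, 118 and 122 RPKM in siNC and 126, 122 and 134 RPKM in siQk. Its groups were also separate in RPKM, by less than 1 RPKM between siNC replicate 3 and siQk replicate 2, with a log2 fold change of 0.11 (SE 0.078, edgeR p = 0.469, exact permutation p = 0.1). They overlapped in log2 CPM, where siNC replicate 3 was 0.12 above the siNC mean and siQk replicates 1 and 2 were 0.095 and 0.038 above it. Psmd1 lies outside the rule for genes given in full and was chosen after its values were seen. Its exons share 553 bases with Htr2b and Gm21972.

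Psmd2, the other large base scaffold, had 201, 198 and 238 RPKM in siNC and 189, 203 and 199 RPKM in siQk, a log2 fold change of -0.14 (SE 0.11). Psmd13, a lid subunit and the most abundant of the 11, had 240, 243 and 258 RPKM in siNC and 224, 300.3 and 243 RPKM in siQk, a log2 fold change of 0.023 (SE 0.13). The siQk values of Psmd13 spanned the siNC range at both ends, and in Psmd2 the groups overlapped through siNC replicates 1 and 2. Without siNC replicate 3 the value of Psmd2 was -0.017. Psmd4, which captures ubiquitin chains, had a log2 fold change of 0.13, and Psmd14, which cuts ubiquitin off the substrate, had 0.00091. Levels within the 11 ran from 26.3 RPKM for Psmd11 to 251 RPKM for Psmd13 on average.

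The 3 chaperones of base assembly, which leave before the particle is complete, were all tested and 0 passed the test. Psmd5 had 52.1, 50.9 and 67.9 RPKM in siNC and 53.2, 58.5 and 56.2 RPKM in siQk, a log2 fold change of -0.055 (SE 0.16). Psmd10, also known as gankyrin, had 42.3, 41.9 and 55.6 RPKM in siNC and 44.0, 61.2 and 44.9 RPKM in siQk, a log2 fold change of 0.071 (SE 0.22). In Psmd5 the high library was siNC replicate 3, and in Psmd10 it was siQk replicate 2 followed by siNC replicate 3. Psmd9 had the lowest mean RPKM over the 6 libraries of all tested members on the deposited exon lengths (with principal transcript lengths Psmb9 was lower), at 4.48, 3.70 and 4.603 RPKM in siNC and 4.74, 4.37 and 4.31 RPKM in siQk, and its exons share 1849 bases with a noncoding gene on the opposite strand.

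The Psme genes encode caps that open the core without ATP. All 4 were tested, 2 were above and 2 below 0, and 0 passed the test. Psme1 (PA28 alpha), which forms a ring with Psme2 and is induced by interferon-gamma, had 78.1, 62.1 and 39.7 RPKM in siNC and 78.7, 61.2 and 63.0 RPKM in siQk, a log2 fold change of 0.16 (SE 0.29). Psme2 (PA28 beta) had 38.9, 43.4 and 25.9 RPKM in siNC and 46.1, 44.3 and 35.9 RPKM in siQk, a log2 fold change of 0.20 (SE 0.23). In both genes siNC replicate 3 was the lowest of the 6 libraries and the groups overlapped. Without it the log2 fold change was -0.052 for Psme1 and 0.033 for Psme2. Psme2 has a near-identical copy, Psme2b, over 82.5% of its principal transcript, so its level is uncertain. Psme3 (PA28 gamma), the nuclear cap, had 149, 153 and 174 RPKM in siNC and 142, 167 and 132 RPKM in siQk, a log2 fold change of -0.14 (SE 0.13). Psme4 (PA200), a nuclear activator linked to histone degradation, had 35.3, 44.6 and 55.5 RPKM in siNC and 44.8, 48.4 and 40.2 RPKM in siQk, a log2 fold change of -0.054 (SE 0.22). The siQk values of Psme4 lay inside the siNC range, while in Psme3 siQk replicates 1 and 3 lay below the lowest siNC library and siQk replicate 2 did not. On the deposited exon lengths, transcript of Psme1 stood at 38.6% ± 14.9 of that of Psme3 in siNC and 46.6% ± 9.47 in siQk (SD, n = 3 each). With principal transcript lengths the means over the 6 libraries were 28.3 for Psme1 and 150.4 for Psme3 in RPKM-like units, so this share moves strongly with the lengths used.

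Levels of the core subunits were far apart although each standard subunit enters the barrel in equal number. Over the 14 standard alpha and beta genes, mean RPKM ran from 56.2 (Psma3) to 485 (Psmb4), an 8.63-fold range that was 8.29-fold to 10.9-fold within single libraries. After Psmb4 came Psma6 (457 RPKM), Psmb1 (454 RPKM) and Psma7 (356 RPKM), and at the lower end Psmb3 (91.0 RPKM) and Psmb5 (63.4 RPKM) preceded Psma3. The order was stable, with Spearman's rho of at least 0.974 across the 14 genes between any pair of libraries, which share the same exon lengths. In 9 of the 13 neighboring pairs in this order, the ranges over the 6 libraries overlapped, but in 3 of these 9 pairs, Psmb1 and Psma7 among them, the order was the same within all 6 libraries. The other 6 overlapping pairs changed order in at least 1 library and so did not differ beyond their spread. The scale depends on the exon length used: for 6 members the deposited length was over 1.5 times that of the principal GENCODE transcript, Psmb7 among them (3240 against 1160 bases), and for another 6 the principal transcript was over 1.5 times the deposited length (Psma2, Psma3, Psmb1, Psmb9, Psmd5 and Psme1). Counts are uncertain for members whose sequence recurs: 7 members have near-identical copies elsewhere over more than 20% of the principal transcript, which are Psma3, Psma5, Psmb3, Psmb5 and Psmc1 besides Psmd11 and Psme2. In all, 12 members share exon bases with another gene, such as Psmb7 with Nek6 (405 bases) and Psmd13 with Sirt3 (342 bases), both on opposite strands. With principal transcript lengths, a setting chosen once the data had been seen, the range widened to 14.6-fold, from 30.0 (Psma3) to 437 (Psma6), and rho with the deposited order was 0.71.

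**Figure D4:**
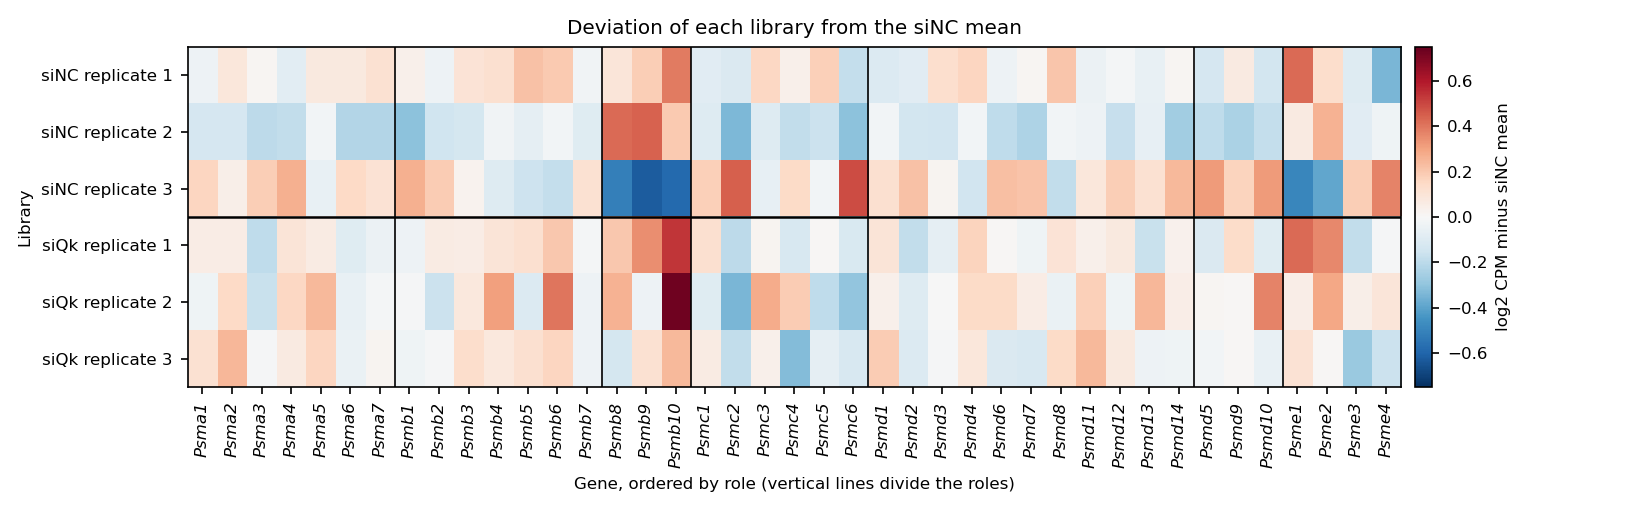
Log2 CPM of each tested proteasome gene in each library minus the mean of the 3 siNC libraries (color, red above and blue below), with genes ordered by role. The row of siNC replicate 2 is mostly blue, that of siNC replicate 3 is red in most genes, and the deepest blue of siNC replicate 3 is at Psmb8, Psmb9, Psmb10, Psme1 and Psme2.

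Differences between the control libraries were as large as those between the groups. The median deviation of the 41 genes from the siNC mean was 0.040, -0.13 and 0.12 (log2 CPM) in the siNC libraries, in replicate order, and 0.039, 0.042 and 0.0072 in the siQk libraries. The 3 siQk libraries thus lay between siNC replicates 2 and 3. In RPKM, siNC replicate 2 was the lowest library in 17 of 41 genes (41.5%, against 12.4% of all genes tested), and siNC replicate 3 was the highest in 15 (36.6%, against 16.5%). The latter library was also the lowest in 12 (29.3%, against 30.9%). The median log2 fold change of the 41 genes was -0.030 without siNC replicate 2 and 0.081 without siNC replicate 3, so its sign depended on a single control library. The number of genes above 0 was 15 and 28 of 41 in these fits.

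The 5 interferon-inducible members were low in siNC replicate 3. Psmb8, Psmb9, Psmb10, Psme1 and Psme2, set apart after their values were seen, all had their lowest level in that library (5 of 5, where 30.9% of all genes tested had theirs there). The median deviation of the 3 inducible beta genes was 0.18, 0.43 and -0.58 in the siNC libraries, beside 0.35, 0.26 and 0.12 in siQk. Tapbp, a partner of the peptide transporter, had 25.3, 28.0 and 12.8 RPKM in siNC and 22.2, 17.2 and 20.95 RPKM in siQk, with the same library lowest. The part of library preparation or culture in this was not tested.

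Genes that work with the proteasome were read from lists of accessory and assembly factors, transcriptional regulators, ubiquitin and its activation, and antigen processing. Of the 20 accessory and assembly genes tested, 0 were called, 0 were higher and 1 was lower at an unadjusted p under 0.05 (where 1.2% of all genes were higher and 1.69% lower), and the median log2 fold change was 0.039. That gene was Ube3c, a ubiquitin ligase that binds the proteasome and extends chains, with 35.0, 44.1 and 50.6 RPKM in siNC and 32.5, 27.4 and 25.9 RPKM in siQk. Its groups did not overlap, and the log2 fold change was -0.63 (SE 0.20, edgeR p = 0.00682, adjusted p = 0.9996, exact permutation p = 0.1). Ubqln2, a shuttle that carries ubiquitinated proteins to the proteasome and is mutated in a form of motor neuron disease, had 93.6, 106 and 78.6 RPKM in siNC and 78.3, 64.1 and 90.9 RPKM in siQk, with overlapping groups (log2 fold change -0.28, SE 0.18). Pomp, the maturation factor of the core, had 41.8, 41.2 and 42.2 RPKM in siNC and 41.3, 56.6 and 44.6 RPKM in siQk.

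Among 14 regulators of proteasome genes, 0 were called and 0 had an unadjusted p under 0.05, with 6 above and 8 below 0 and a median log2 fold change of -0.14. Ddi2, the protease that activates the transcription factor Nfe2l1, had 32.8, 37.0 and 40.1 RPKM in siNC and 20.9, 27.5 and 34.2 RPKM in siQk (log2 fold change -0.44, SE 0.23, edgeR p = 0.0642, exact permutation p = 0.2). Its groups overlapped through siNC replicate 1 and siQk replicate 3. Nfya, a subunit of the factor that binds the CCAAT box, had 15.3, 14.9 and 15.5 RPKM in siNC and 11.9, 12.5 and 13.6 RPKM in siQk, with no overlap (log2 fold change -0.29, SE 0.072, edgeR p = 0.0951, adjusted p = 0.9996, exact permutation p = 0.1). Nfe2l1 itself, which raises proteasome genes when the protease is short, had 65.9, 70.2 and 64.5 RPKM in siNC and 65.1, 41.3 and 58.6 RPKM in siQk, where siQk replicate 2 was far below the rest.

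Among the 18 ubiquitin and activation genes, 0 were called and 0 had an unadjusted p under 0.05, with a median log2 fold change of 0.054. Cdc34, a ubiquitin-conjugating enzyme, had 217, 225 and 214 RPKM in siNC and 248, 292 and 245 RPKM in siQk, which did not overlap (log2 fold change 0.23, SE 0.077, edgeR p = 0.128, adjusted p = 0.9996, exact permutation p = 0.1). Nploc4, a cofactor of the segregase Vcp, had 66.4, 73.5 and 74.0 RPKM in siNC and 57.4, 68.0 and 67.7 RPKM in siQk, which overlapped. Of the 8 antigen processing genes, 7 were tested, 0 were called and 0 had an unadjusted p under 0.05. Erap1, a peptide trimmer, had 4.11, 6.77 and 6.82 RPKM in siNC and 7.69, 7.33 and 6.82 RPKM in siQk (log2 fold change 0.28, SE 0.25). The groups overlapped, and without siNC replicate 1 the value of Erap1 was 0.068.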

How the data were processed

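Poly-A RNA of 6 NSC-34 libraries was made with a TruSeq kit, sequenced as pairs of 75-base reads, aligned with OLego to the mouse genome (mm10 per the labels) and counted per gene with Quantas by the authors. The deposited tables hold, per gene, an expected count that need not be whole (21.9% to 22.9% of values per library differed from the nearest whole number, with no tolerance), the exon length and the RPKM, which the authors scaled by exon length and library total. Expected counts were rounded, scaled by TMM (factors 0.957 to 1.02). The filter was a mean log2 CPM over 0, and the 12665 genes that passed held at least 99.9% of the counts in each library. edgeR 4.0.16 (R 4.3.3) compared siQk with siNC by its quasi-likelihood F test over all 6 libraries, with Benjamini-Hochberg adjustment over all genes tested, and genes were called at p under 0.01 and adjusted p under 0.1. Standard errors of log2 fold changes come from log2 CPM (prior count 2), and 95% intervals from limma 3.58.1. The exact permutation test of mean RPKM is two-sided over 20 arrangements, with a smallest p of 0.1, and its p-values are not adjusted. The script was tested on simulated data.

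Positions, shared exons and transcript lengths come from GENCODE M21, near-identical copies from BLAST 2.17.0 (75 bases or more at 97% identity) and promoters from RefSeq (GRCm38.p6). Of the accessory list, 20 of 21 genes were matched (Ecm29 was not), and Sem1 is listed as Shfm1. Values were given per library for the catalytic, inducible and Psme genes, for the highest, the lowest and up to 2 members with the smallest p in each other role group, and for up to 2 such genes per context list. Some items are not reported here. Members outside this rule, and the further list genes Pomp, Nfe2l1, Tap1, Tapbp, Isl1, Cd3e and Chat, were picked with values in view. The members and lists were chosen with earlier results of these data known. Alternatives were 3 scalings, 2 filters, the edgeR exact test, DESeq2 1.42.0, a replicate block and libraries left out.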

Additional observations from a re-analysis of the deposited data

How the results depend on the processing

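Under the 15 other fits (3 scalings, 2 filters, 2 tests, the replicate block, each of the 6 libraries left out and siNC replicate 3 with siQk replicate 2 left out), 0 proteasome genes were called, and the smallest unadjusted p among them was between 0.0530 and 0.193. The number of all genes called was 5 with the edgeR exact test and 19 with DESeq2, against 1 in the main test, and it ranged from 0 (without siNC replicate 1, where Qk had a log2 fold change of -3.09 and an adjusted p of 0.125) to 1 with a library left out. The cause was not tested. Same-numbered libraries did not deviate together (correlations 0.213, 0.018 and -0.17), so the replicate numbers were not treated as pairs, and with the replicate block the count of called genes was 1, no proteasome gene was called and the median log2 fold change of the members was 0.039. That median ranged from -0.030 (without siNC replicate 2) to 0.081 (without siNC replicate 3) with single libraries left out, and from 0.024 to 0.061 under the scalings, filters and tests, where total counts moved the median of all genes to 0.028. The core range was 8.60-fold with TMM-scaled CPM per exon length and 14.6-fold with principal transcript lengths, which differ from the deposited ones by construction.

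For the 32 genes named with a fit, 450 of 480 refits kept the direction and the side of the threshold. The sign turned in 29, all with libraries left out, and none of these genes was called in any of those fits. With single libraries left out, log2 fold changes ranged from -0.033 to 0.16 for Psmb5, from -0.084 to 0.029 for Psmb7, from -0.15 to 0.30 for Psmb8, from -0.17 to 0.31 for Psmb9, from -0.44 to -0.019 for Psmc2, from -0.23 to 0.032 for Psmc4, from -0.38 to 0.068 for Psmc6, from -0.16 to 0.12 for Psmd5, from -0.075 to 0.13 for Psmd9, from -0.0995 to 0.25 for Psmd10, from -0.11 to 0.11 for Psmd13, from -0.052 to 0.39 for Psme1 and from -0.21 to 0.15 for Psme4. Among values that kept their sign, those of other members moved by over 1.5 times as well, from -0.18 to -0.00037 for Psma6, from 0.084 to 0.20 for Psma2, from 0.079 to 0.23 for Psmb4, from 0.17 to 0.36 for Psmb6, from 0.22 to 0.66 for Psmb10, from -0.21 to -0.017 for Psmd2, from 0.033 to 0.33 for Psme2 and from -0.24 to -0.040 for Psme3, and so did Erap1, from 0.068 to 0.42, Ddi2, from -0.64 to -0.28, Ubqln2, from -0.41 to -0.15, Nploc4, from -0.23 to -0.099, and Cdc34, from 0.15 to 0.27. Without siNC replicate 3 and siQk replicate 2 together, the values were 0.033 for Psmb7, -0.22 for Psmb8, -0.082 for Psmb9, 0.030 for Psmc2, 0.13 for Psmc6, 0.094 for Psmd5, -0.042 for Psmd13 and 0.095 for Psme4. What depth adds to the spread was not tested, and the lowest count of a tested member in a library was 100 (Psmb9).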
